A study of Mus musculus with 8 samples.

Results

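Lipid handling by cardiac cells was followed through 10 genes, Lpl, Cd36, Msr1, Trem2, Fabp4, Fabp5, Plin2, Abca1, Abcg1 and Apoe, taken by symbol from the 27998 genes listed in both single-cell RNA-sequencing (scRNA-seq) matrices of the mouse left ventricle. The genes were chosen by their roles in taking up, storing and exporting lipid, with earlier results of these data known. The measured values then in view were those of Lpl and Cd36, which had led a macrophage subcluster of the IR library. Their levels are therefore given as a description, without a test.

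Circulating triglyceride reaches heart cells as fatty acid only after lipoprotein lipase has cut it at the vessel wall, and scavenger receptors such as CD36 bring fatty acid and oxidised lipoprotein into the cell. Inside the cell, fatty acid binding proteins carry lipid and perilipin 2 coats the droplets in which it is stored. Macrophages that clear dead cells take up large amounts of membrane lipid and cholesterol. They return the cholesterol to the outside through the transporters ABCA1 and ABCG1, and ABCA1 loads it on apolipoproteins such as APOE.

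The samples came from adult male mice of C57BL/6 background, whose left ventricles were taken either after a sham operation or after closing and reopening a coronary artery (ischaemia and reperfusion, IR). The labels title the sham samples 0 h and the IR samples 6 h, while the stated protocol takes both kinds 6 h after surgery, so the groups are called sham and IR. For each group 4 samples were recorded, each a pool of 3 hearts, but the cells of a group were deposited in 1 matrix in which no cell can be traced to its sample. Each group therefore counts as 1 library, differences between sham and IR have no replicate check, and no p-value is given. The intervals printed are exact 95% intervals for counting error only: Poisson for a level, binomial for a share and for a ratio of libraries.

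The sham matrix held 11620 barcodes and 58653308 UMIs (unique molecular identifiers, each standing for 1 captured mRNA), and the IR matrix 8539 barcodes and 75033226 UMIs. After the cell filter stated by the study, 9777 sham cells (84.1%) and 4880 IR cells (57.1%) were kept. The limit of 2500 genes per cell removed 1600 sham barcodes (13.8%) but 3385 IR barcodes (39.6%), so levels without that limit are given beside the results they move most. The libraries shared 30 barcodes, 14 of them after the filter. Cells were put in 10 classes by the UMIs of marker genes that include none of the 10 lipid genes, and the class names mean macrophage-like, endothelial-like and so on. The macrophage/monocyte class (macrophages for short) held 3217 sham and 516 IR cells, the neutrophil class 274 and 2390, the fibroblast class 2917 and 195, the endothelial class 213 and 48, and the pericyte class 571 and 83. All 12 macrophage markers had UMIs in sham macrophages, led in the class by C1qa, C1qb and C1qc. A further 686 sham cells (7.02%) and 608 IR cells (12.5%) had mixed or too few markers and stayed unassigned. Levels are in CPM, the UMIs of a gene summed over the cells of a class and scaled to a class total of 1000000 UMIs, and are not compared between genes. Markers of neutrophils summed to more in the IR library in each of the other 9 classes, with a summed marker level in macrophages of 192 CPM in sham and 1042 in IR, and in B cells of 60.8 and 1136. Their part in the results was not tested.

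Promoter sequence is shown for a receptor, a droplet gene, a lipid sensor and an exporter, and not for Apoe, the other gene with a window. RefSeq (GRCm38.p6, the build of mm10) gave windows for 5 of the 10 genes, and each line below holds the 250 bases before an annotated transcript start, 5′ to 3′ on the gene's strand, with motif matches in capitals. The Cd36 window is chr5:17835897-17836146 (minus strand). The Plin2 window is chr4:86670060-86670309 (minus), the Trem2 window chr17:48346151-48346400 (plus) and the Abca1 window chr4:53159896-53160145 (minus).
Cd36: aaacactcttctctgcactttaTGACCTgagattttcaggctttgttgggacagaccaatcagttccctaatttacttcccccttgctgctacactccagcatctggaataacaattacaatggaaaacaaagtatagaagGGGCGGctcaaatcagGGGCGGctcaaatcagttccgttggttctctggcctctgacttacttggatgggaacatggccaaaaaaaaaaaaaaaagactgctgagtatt
Plin2: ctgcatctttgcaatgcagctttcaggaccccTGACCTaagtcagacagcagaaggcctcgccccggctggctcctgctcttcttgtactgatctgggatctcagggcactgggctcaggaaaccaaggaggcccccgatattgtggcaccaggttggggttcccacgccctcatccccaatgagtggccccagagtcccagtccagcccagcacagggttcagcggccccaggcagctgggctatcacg
Trem2: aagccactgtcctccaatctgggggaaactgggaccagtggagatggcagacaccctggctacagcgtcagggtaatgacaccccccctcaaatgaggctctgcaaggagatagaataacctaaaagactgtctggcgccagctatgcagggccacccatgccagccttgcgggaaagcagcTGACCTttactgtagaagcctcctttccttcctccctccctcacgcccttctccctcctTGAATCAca
Abca1: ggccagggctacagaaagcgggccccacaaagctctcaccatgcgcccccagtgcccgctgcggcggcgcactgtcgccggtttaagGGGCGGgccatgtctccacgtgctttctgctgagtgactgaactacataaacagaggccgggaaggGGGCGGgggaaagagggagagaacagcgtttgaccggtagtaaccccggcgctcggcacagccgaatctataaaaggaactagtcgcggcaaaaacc
The start used for Cd36 lies 52905 bases inside the gene as GENCODE annotates it, at a transcript start downstream of the outermost one. Both strands were searched for the letters TGANTCA (AP-1-like, with any base at N), TGACGTCA (ATF/CRE), AGGTCA (the half-site of nuclear receptors such as PPAR and LXR) and GGGCGG (GC box). No match overlapped another. The half-site occurred in reverse as TGACCT in the Cd36, Plin2 and Trem2 windows, 3 of the 7 windows of the 10 genes. It occurred in 14.0% of all 32851 windows of this length. The Apoe windows, not shown, held no match to any of these letters. The AP-1-like letters occurred in the Trem2 window as TGAATCA, with A at the open position, and TGANTCA occurred in 6.75% of all windows. The GC box lay in the Cd36 and Abca1 windows (32.7%), and the ATF/CRE letters matched in none of the windows of the 10 genes (1.55% of all windows). These matches describe letters, and no binding was measured here.

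Among the uptake genes, lipoprotein lipase (Lpl, chr8:68880491-68907448) was found mainly in stromal cells of the sham heart and in macrophages and endothelial cells after IR. Sham levels were 845 CPM in fibroblasts, 495 in cardiomyocytes and 356 in endothelial cells, followed by pericytes with 98.2, smooth muscle cells with 60.9 and macrophages with 57.4. The cardiomyocyte and endothelial intervals overlapped, and the cardiomyocyte class had only 33 sham cells. In the IR library macrophages held 1039 CPM and endothelial cells 945, with overlapping intervals, ahead of fibroblasts with 368. T cells, a class in which the gene should be absent, held 4.08 in sham and 6.09 in IR.

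The fatty acid and scavenger receptor Cd36 (chr5:17781690-17888801) was highest in endothelial cells of both libraries, with 1441 CPM in sham and 2159 in IR. Macrophages held 119 in sham and 638 in IR, while T cells held 3.26 and 4.57. The class A scavenger receptor Msr1 (chr8:39581685-39642673) and the lipid-sensing receptor Trem2 (chr17:48346401-48354147) were macrophage genes here. Msr1 reached 76.8 and 408 CPM in macrophages, followed by neutrophils with 11.95 and 14.2. Trem2 reached 116 and 175 in macrophages, and no other class had more than 8.97.

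Among the carriage and storage genes, Fabp4 (chr3:10204088-10208576), a fatty acid binding protein of adipocytes, capillary endothelium and macrophages, had its highest level in endothelial cells, with 14175 CPM in sham and 16250.1 in IR. Pericytes came second with 1443 and 3794, and macrophages held 38.9 and 131. Its neighbour on chromosome 3, the epidermal-type Fabp5 (chr3:10012548-10016607), was highest in pericytes, with 1344 and 1135, followed by endothelial cells with 1120 and 540. Neutrophils held 296 and 240 CPM of Fabp5 and macrophages 28.9 and 160. The droplet coat gene Plin2 (chr4:86648386-86670060) stood at 203 in sham macrophages, 182 in pericytes and 163 in neutrophils, neighbours in order whose intervals overlapped. In the IR library its order was macrophages with 1012, neutrophils with 635 and pericytes with 478, without overlap.

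Among the efflux genes, Apoe (chr7:19696109-19699188) was by far a macrophage transcript, with 24322 CPM in sham and 16599 in IR macrophages. Fibroblasts followed in sham with 3352, and B cells in IR with 1276, whereas T cells held 202 and 121. The cholesterol exporter Abca1 (chr4:53030787-53159895) was highest in macrophages of the sham library with 118, and in the IR library macrophages with 69.4 and B cells with 75.4 had overlapping intervals. Its partner Abcg1 (chr17:31057675-31117988) had its top value in neutrophils of both libraries, with 67.2 and 81.9, but the intervals overlapped those of B cells in sham (59.2) and NK cells in IR (66.5). Macrophages held 28.8 and 38.4, close to the 40.8 and 45.7 of T cells.

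**Figure D1:**
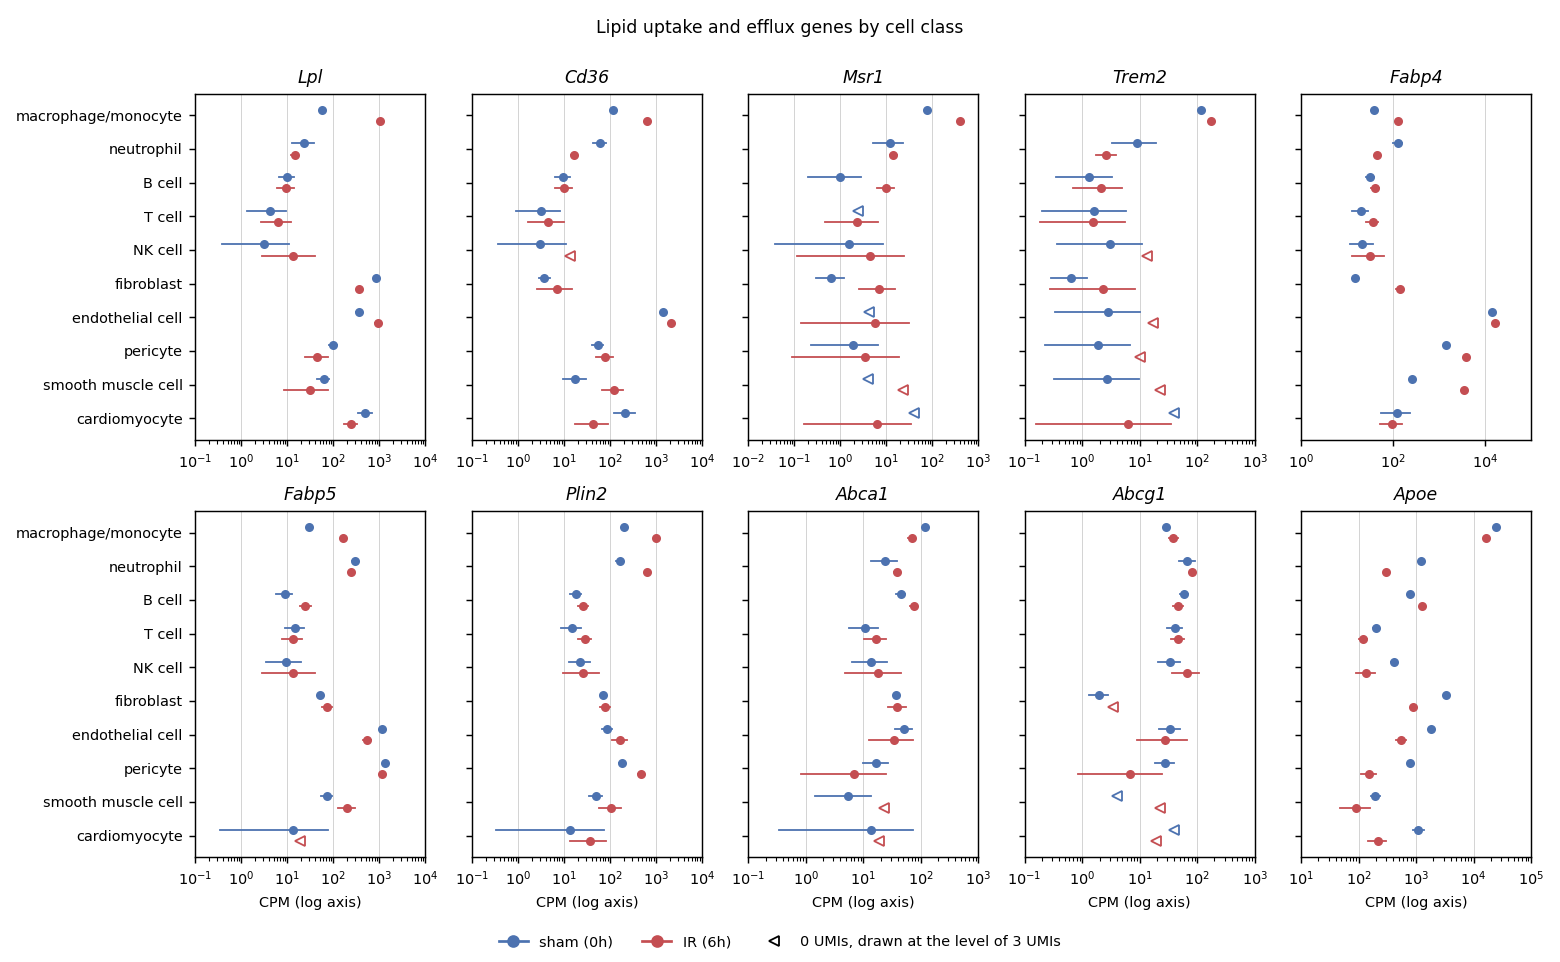
Level of each of the 10 genes (CPM, log axis) in the 10 cell classes of the sham (blue) and IR (red) library; points are summed levels, bars exact 95% counting intervals, and triangles mark classes with 0 UMIs at the level of 3 UMIs. Macrophages lead for Msr1, Trem2 and Apoe, endothelial cells for Cd36 and Fabp4, and Lpl in macrophages moves from 57.4 to 1039.

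Macrophages were also set against endothelial cells of the same sham heart. A gene was counted as different when its levels stood at least 2-fold apart with at least 50 UMIs over both groups. By that rule 5 of the 10 genes were higher in macrophages (Msr1, Trem2, Plin2, Abca1 and Apoe), where 16.5% of all 9626 genes tested were. Another 4 genes were lower in macrophages (Lpl, Cd36, Fabp4 and Fabp5), where 21.6% of all genes were. The exporter Abcg1 stood at 28.8 CPM in macrophages and 34.0 in endothelial cells.

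The comparison of IR with sham asked how lipid genes of resident and incoming cells differ in the first hours of reperfusion. In macrophages the uptake and storage genes were higher in IR, and the efflux genes differed less. By the 2-fold rule 6 of the 10 genes were higher in IR macrophages, where 8.58% of all 9649 genes tested were, and 0 were lower, where 7.59% of all genes were. The median log2 ratio was 2.03 over the 10 genes and 0.09 over all genes. Since the genes were chosen with such results known, the count is not independent evidence.

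Lpl differed most, from 57.4 CPM in sham macrophages to 1039 in IR macrophages, an 18.1-fold difference (log2 4.18, interval 4.07 to 4.29). Cd36 stood 5.36-fold higher in IR (log2 2.42, interval 2.33 to 2.51). Msr1 stood 5.31-fold higher (log2 2.41, interval 2.29 to 2.53). For Trem2, which marks lipid-associated macrophages, the difference was 1.504-fold (log2 0.59, interval 0.45 to 0.73), under the 2-fold line. The receptors that bring lipid in were thus several times higher in the IR library, while the lipid sensor differed less.

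Of the genes that carry and store lipid, Fabp5 stood 5.52-fold higher in IR macrophages (log2 2.46, interval 2.28 to 2.65), and Plin2 4.99-fold (log2 2.32, interval 2.25 to 2.39). Fabp4 stood 3.36-fold higher (log2 1.75, interval 1.56 to 1.93). The 8 markers of adipocytes, which also use Fabp4, summed to 16.5 CPM in sham and 14.4 in IR macrophages. Cidec, Pck1, Lep and Cidea were at 0 in both, and the part of adipocyte RNA was not tested. The exporter Abca1 was lower by log2 -0.77 (interval -0.98 to -0.57) and Apoe by log2 -0.55 (interval -0.56 to -0.54), both within 2-fold. Abcg1 differed by log2 0.42 (interval 0.11 to 0.71). The limit on genes per cell removed 8.74% of the sham and 58.7% of the IR macrophages. Without it the macrophage class grew to 3525 sham and 1249 IR cells, and Abca1, at 112 and 54.1 CPM, passed the 2-fold line downward. In that larger class Fabp4 was at 54.98 and 110 CPM, a smaller ratio, and Fabp5 at 38.9 and 325, a larger one, while Abcg1 was at 33.3 and 29.1, in the other direction. Lpl was there at 67.5 in sham and 930 in IR and Cd36 at 129 and 606, both smaller ratios. Msr1, at 83.6 and 473, had a larger one.

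**Figure D2:**
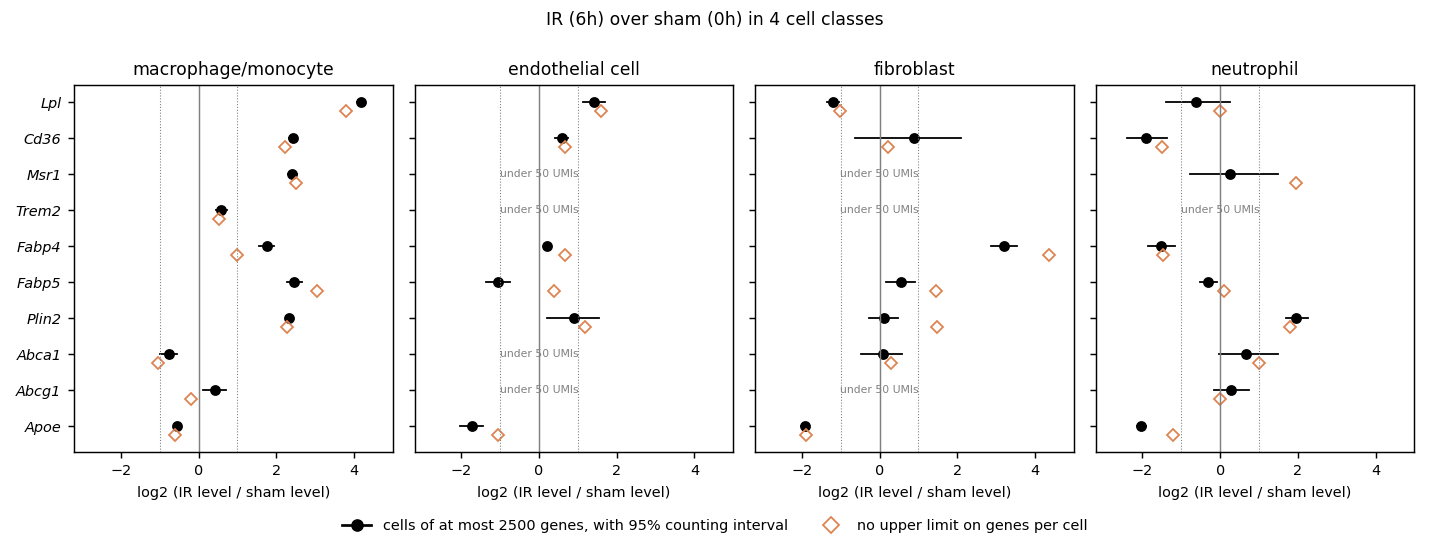
Log2 ratio of IR to sham for each of the 10 genes in macrophages, endothelial cells, fibroblasts and neutrophils; black points are ratios of CPM in cells of at most 2500 genes with exact 95% counting intervals, open diamonds the ratios without that limit, and dotted lines mark 2-fold. In macrophages Lpl stands at 4.18, Cd36, Msr1, Fabp5 and Plin2 between 2.32 and 2.46, and Apoe and Abca1 below 0.

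Because IR macrophages were deeper (median 6503.5 UMIs per cell against 4675 in sham), shares of cells with a UMI were compared after thinning every cell to 1000 UMIs, which left out 62 sham and 20 IR cells. Lpl was then found in 4.75% of sham and 36.9% of IR macrophages, against 15.9% and 58.1% before thinning. In T cells, with medians of 3089.5 and 5481 UMIs, the thinned share was 0.862% and 0.435%. Plin2 had thinned shares of 15.7% and 51.6%, and Cd36 of 9.32% and 38.1%. Msr1 was found in 7.29% and 24.4%, while Trem2 was found in 10.1% and 12.3%, with overlapping intervals. Higher levels of the uptake genes thus went with more cells holding a UMI. A macrophage thinned to 1000 UMIs held on average 1.60 of the 10 genes in sham and 2.84 in IR.

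Lpl and Cd36 tended to be found in the same macrophages in both libraries, and Fabp5 in other cells in IR. Among 183 thinned IR macrophages with an Lpl UMI, 54.6% also had a Cd36 UMI (interval 47.1 to 62.0), against 28.4% (23.5 to 33.8) of the 313 cells without Lpl. Fabp5 was found in 2.73% (0.893 to 6.26) of the cells with Lpl and in 11.8% (8.46 to 15.9) of those without. Of the 42 cells with a Fabp5 UMI, 23.8% (12.1 to 39.5) had Abcg1, against 3.52% (2.03 to 5.66) of the 454 cells without Fabp5. These cells come from 1 library and are not replicates.

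Macrophages were next divided by state, using UMIs of state markers that hold none of the 10 genes. In sham the states were Lyve1 (725 cells), MHCII (975), interferon (530), Gdf15 (352), Ly6c2 monocyte (155), Thbs1/Arg1 (19) and patrolling monocyte (170). In IR the same states held 51, 20, 22, 208, 15, 79 and 31 cells. A state is a range of a score rather than a cell type, and 657 sham cells (20.4%) and 73 IR cells (14.1%) lay near a boundary, while 253 and 84 cells had no state. The Gdf15 state, marked by stress genes, was led by Gdf15, Hspa1b and Hspa1a but also by the neutrophil genes S100a9 and S100a8 and the platelet gene Ppbp, with a median of 0 neutrophil-marker UMIs per cell in sham and 3 in IR. In IR the median was between 3 and 5 in all 7 states. The highest value in a cell was 502 in the Gdf15 state and 304 in the Thbs1/Arg1 state, against 6 to 19 in the other 5, and the part of these cells in the results was not tested.

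Lpl was higher in IR in each of the 4 states with tissue macrophage, interferon or stress markers. It stood at 31.2 CPM in sham and 684 in IR in the Lyve1 state, which marks perivascular resident macrophages, and at 35.4 and 1220 in the MHCII state. In the interferon state it stood at 97.7 and 1185 and in the Gdf15 state at 91.5 and 1305. The states with monocyte markers had lower IR levels. Lpl stood at 105 and 10.9 (1 UMI) in the Ly6c2 state, at 106 and 207 in the Thbs1/Arg1 state, and at 19.5 and 54.9 in patrolling cells. The cells with no state had the highest IR level, 2201.2. Lpl in IR macrophages was thus not restricted to cells assigned to the Gdf15 state. Cells of the other states can still hold UMIs of its markers, which were not counted in them.

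Comparing the Gdf15 with the Lyve1 state inside the IR library gave no gene past 2-fold among those with at least 50 UMIs. Fabp5, under that floor, stood at 25.9 CPM in the Gdf15 and 3.44 (1 UMI) in the Lyve1 state. Of the 10 genes 8 had at least 50 UMIs, 0 were higher in the Gdf15 state, where 5.31% of all 3882 genes tested were, and 0 were lower, where 2.81% were. Of these 8, Lpl was nearest to 2-fold, at 1305 against 684 CPM. The median log2 ratio was -0.10 over the 8 genes and -0.03 over all genes. The number higher in the Gdf15 state was 2 without the limit on genes per cell, 3 with Leiden clusters, 1 with equal weight per cell and 1 without the floor of 50 UMIs.

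**Figure D3:**
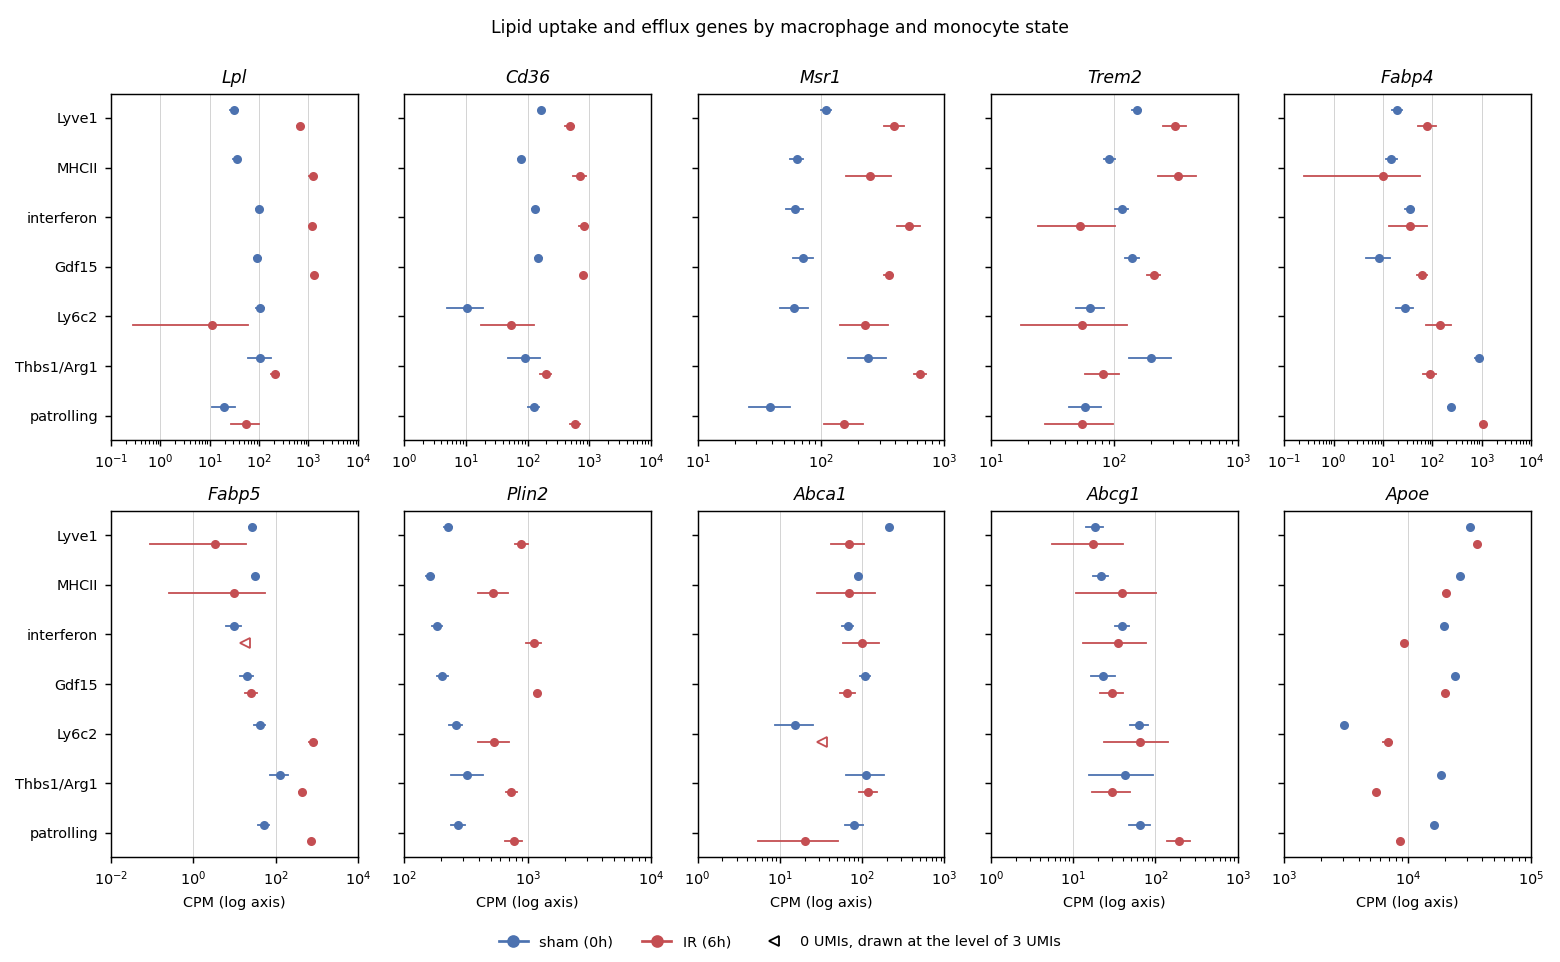
Level of each gene (CPM, log axis) in 7 macrophage and monocyte states of the sham (blue) and IR (red) library, with exact 95% counting intervals and triangles for 0 UMIs drawn at the level of 3 UMIs. In IR, Lpl is at 684 to 1305 in the Lyve1, MHCII, interferon and Gdf15 states and at 10.9 to 207 in the Ly6c2, Thbs1/Arg1 and patrolling states, and Fabp5 shows the opposite order.

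Fabp5 had the opposite order to Lpl in the IR library. It reached 816 CPM in the Ly6c2 state, 433 in the Thbs1/Arg1 state and 749 in patrolling monocytes. In the Lyve1 and MHCII states 1 UMI each was found, in the Gdf15 state 25.9 CPM, and in the interferon state 0 UMIs. Single cells weigh on these values, since 25 of the 75 UMIs in the Ly6c2 state and 73 of the 232 in the Thbs1/Arg1 state came from 1 cell each. Fabp4 was highest in patrolling monocytes, with 239 in sham and 1048 in IR. The 19 sham cells of the Thbs1/Arg1 state held 867 of Fabp4 and the 79 IR cells 89.6.

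The other genes varied among states as well. Cd36 in IR was 485 to 813 in the Lyve1, MHCII, interferon, Gdf15 and patrolling states, but 54.4 in the Ly6c2 state. Msr1 was highest in the Thbs1/Arg1 state, with 240 in sham and 637 in IR. Trem2 stood at 152 and 309 in the Lyve1 state and at 91.0 and 327 in the MHCII state, which put it past 2-fold upward there, while in the interferon state it stood at 114 and 53.0 (9 UMIs) and in the Thbs1/Arg1 state at 197 and 80.3. Abca1 was 212 in sham and 68.7 in IR in the Lyve1 state, and 80.4 and 20.0 (4 UMIs) in patrolling monocytes, while it stayed within 2-fold in the MHCII, interferon, Gdf15 and Thbs1/Arg1 states. Apoe in the Lyve1 state was 31941 and 36221, whereas it was 19600 and 9394 in the interferon state and 18685 and 5498 in the Thbs1/Arg1 state.

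To show these orders with more cells, the Lyve1, MHCII, interferon and Gdf15 states were pooled as tissue states (2582 sham and 301 IR cells) and the Ly6c2, Thbs1/Arg1 and patrolling states as monocyte states (344 and 125 cells). The pools were chosen after the values were seen and are a description. Their names are labels only, since the interferon and Gdf15 markers do not show whether a cell is resident. Of the 301 IR cells of the tissue pool, 208 were in the Gdf15 state. In IR, Lpl was 1193 CPM in the tissue pool and 149 in the monocyte pool, an 8.03-fold difference, while in sham it was 54.7 and 70.1. Fabp5 in IR was 19.2 and 552, 28.8-fold lower in the tissue pool, and in sham 24.3 and 52.0. The contrasts between pools were thus larger in IR than in sham for both genes. Fabp4 was lower in the tissue pool of both libraries, 19.4 against 177 in sham and 59.7 against 327 in IR. Trem2 stood at 217 and 71.3 in the IR pools, and Abca1, at 126 and 49.4 in the sham pools, was 69.9 and 80.9 in IR. Plin2 was high in both IR pools, 1102 and 724.

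**Figure D4:**
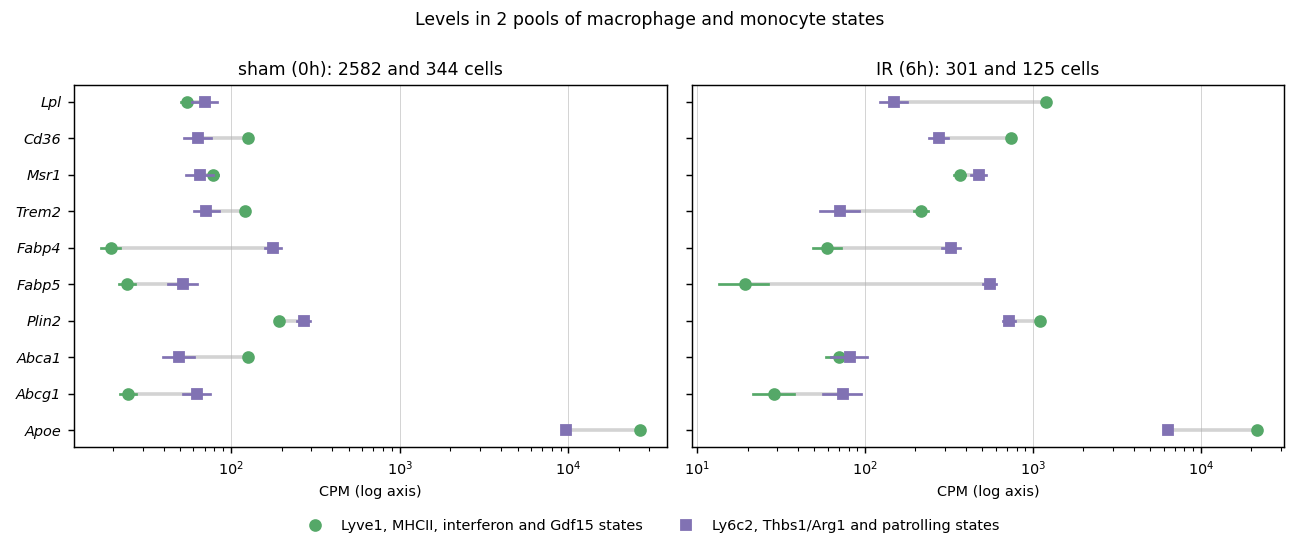
Level of each gene (CPM, log axis) in the pooled tissue states and pooled monocyte states of the sham and IR library, with exact 95% counting intervals. In IR, Lpl (1193 against 149) and Fabp5 (19.2 against 552) differ in opposite directions between the pools.

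Endothelial cells, which take fatty acid from the blood, showed another set of differences, although only 48 IR cells were kept. Of the 6 genes with at least 50 UMIs, 1 was higher in IR (Lpl), where 6.29% of all 2701 genes tested were, and 2 were lower (Fabp5 and Apoe), where 12.1% were. Lpl stood at 356 CPM in sham and 945 in IR, with 31 of the 168 IR UMIs in 1 cell. Cd36 differed by log2 0.58 (interval 0.41 to 0.75), and Fabp4, the most abundant of the 10 genes in this class, by log2 0.20 (interval 0.14 to 0.26). Gpihbp1, which anchors lipoprotein lipase to the endothelium, was at 1011 and 1288. Apoe was lower, at 1851 and 557. Macrophage markers summed to 510 CPM in sham and 157 in IR endothelial cells, and their part in the Apoe values was not tested. The value of Fabp5 depended on the cell filter, since it went from 1120 to 540 in the cells kept but from 999 to 1308 without the limit on genes per cell. The limit removed 42.9% of the IR endothelial cells.

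In fibroblasts, the matrix-forming stromal cells, Lpl was lower in IR, at 845 in sham and 368 in IR (log2 -1.20, interval -1.37 to -1.04). Of the 7 genes with at least 50 UMIs, 2 were lower (Lpl and Apoe), where 17.7% of all 10259 genes tested were, and 1 was higher (Fabp4), where 11.8% were. The thinned share of fibroblasts with Lpl was 50.2% in sham and 28.2% in IR. Apoe stood at 3352 and 882. Fabp4 stood at 15.2, under the 19.6 of sham T cells, and at 139 in IR, above the 35.8 of IR T cells. Endothelial markers summed to 17.9 CPM in sham and 15.04 in IR fibroblasts, with 6 of the 10 at 0 in IR. Pericyte markers summed to 53.3 and 45.1, and smooth muscle markers to 62.1 and 135. The part of RNA from other classes in the Fabp4 values was not tested. The limit on genes per cell removed 86.9% of the IR fibroblasts. Without it, Fabp4 was 16.3 and 337, and Plin2, which was 72.6 and 78.7 in the kept cells, was 73.8 and 207. Fabp5 in fibroblasts was 50.6 and 74.0 with the limit and 48.4 and 131.5 without it.

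The mural cells shared the higher Fabp4. Pericytes, the cells that wrap capillaries, held 1443 CPM in sham and 3794 in IR. Smooth muscle cells held 264 and 3435, with 167 of the 455 IR UMIs in 1 of 28 cells. Without the limit on genes per cell, which removed 56.9% of the IR smooth muscle cells, they held 276 and 1410 of Fabp4. In the kept smooth muscle cells pericyte markers summed to 2743 CPM in sham and 4130 in IR, and smooth muscle markers to 52016 and 18816. The part of pericyte RNA in the Fabp4 values of smooth muscle cells was not tested. Plin2 in pericytes was 182 and 478, and Fabp5 was 1344 and 1135. Apoe in pericytes was 771 and 151, but 230 of the 824 sham UMIs lay in 1 cell. Macrophage markers in pericytes summed to 808 CPM in sham and 189 in IR, and their part in the Apoe values was not tested.

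In neutrophils, the largest class of the IR library, the droplet gene Plin2 was the 1 gene past 2-fold upward, with 163 in sham and 635 in IR (log2 1.96, interval 1.69 to 2.25), where 10.5% of all 6195 genes tested were. The thinned share of neutrophils with Plin2 was 9.65% and 36.7%. Of the 9 genes with at least 50 UMIs, 3 were lower (Cd36, Fabp4 and Apoe), where 23.0% of all genes were. With classes from Leiden clusters the direction of both Cd36 (log2 1.08) and Fabp4 (log2 0.98) turned. A single sham cell held 19 of the 41 Cd36 UMIs, and 38 of the 84 Fabp4 UMIs lay in 1 cell. Fabp4 was found in 3.09% of thinned sham and 3.96% of thinned IR neutrophils. Apoe was spread more widely, with a UMI in 148 of 274 sham and 1025 of 2390 IR neutrophils, and its thinned shares were 37.8% and 17.8%. Macrophage markers summed to 1442 CPM in sham and 371 in IR neutrophils, which moved in the direction of the 3 genes, and their part in the result was not tested. Fabp5 was found in 27.8% of thinned sham and 19.8% of thinned IR neutrophils, and Abcg1 stood at 67.2 and 81.9. Without the limit on genes per cell, Msr1, at 11.95 and 14.2 in the kept neutrophils, was 14.9 and 57.7, and IR neutrophils held 557 of Apoe in place of 297.

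Lymphocytes held little of most of the genes. In B cells Abca1 was 44.9 in sham and 75.4 in IR, and Apoe was 784 and 1276. T and NK cells held at most 35.8 CPM of each of the 10 genes other than Abcg1 and Apoe. In the 33 and 46 cardiomyocytes Lpl was 495 and 239, from 37 and 38 UMIs. Abca1 and Msr1 in NK cells, cardiomyocytes and smooth muscle rested on fewer than 10 UMIs in each library.

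The genes whose levels were most alike to each of the 10 were sought over the 20 points given by 10 classes in 2 libraries, by Pearson's r of log2(CPM + 10) over 8306 genes. Points of 1 library share their depth and free RNA, so r is a description. Trem2 was most like Mmp13 (r = 0.99), Tbxas1 and Slamf8, and Msr1 most like Mmp12 (0.96), Kcnk13 and F13a1. Apoe was most like Hexa (r = 0.93), Hpgd and Pltp, and Cd36 most like Scarb1 (0.92), a lipoprotein receptor, F11r and Fnbp1l. Fabp4 was nearest to Apold1 (0.94), an endothelial gene, Kitl and Adgrf5, and Abcg1 to Neurl3 (0.93), St8sia4 and Rin3. Plin2 was nearest to Nek6 (0.91), Arf2 and Bach1, and Fabp5 to Csnk1e (0.89), Mtus1 and Id1. Abca1 was nearest to Prcp (0.87), Sgk3 and Ctsh, and Lpl to the stress chaperone gene Bag3 (0.83), Chst7 and Dapk1.

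Other genes of lipid handling in macrophages were read from 6 lists of 87 genes, 86 of which were found. The counts stand beside 8.58% higher and 7.59% lower over all genes tested in this class, and each list is short. Of 13 further uptake genes with at least 50 UMIs, 1 was higher (Acsl1, which activates fatty acid, 16.8 in sham and 34.2 in IR) and 2 were lower (Lmf1 and Fabp3), and the list had a median log2 ratio of 0.57. Of 11 storage genes 5 were higher and 0 lower (median 0.68). Hilpda, which blocks droplet lipolysis, stood at 9.74 and 159, and G0s2, another inhibitor of lipolysis, at 9.16 and 69.7. Dgat2, which makes triglyceride, stood at 4.42 and 14.1. G0s2 was at 1760 and 9731 in neutrophils and Hilpda at 41.8 and 363, and the part of neutrophil RNA in the macrophage values was not tested.

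Of 14 efflux genes and targets of LXR, 2 were higher (Ch25h, 44.6 and 192, and Nr1h3, 5.46 and 11.5) and 1 was lower (the phospholipid transfer gene Pltp, 514 and 189). The list's median log2 ratio was 0.27. Of 10 PPAR and oxidation genes 1 was higher (Ppard, 9.87 and 21.4). Pparg stood at 10.1 and 18.2, and Cpt2, of fatty acid oxidation, at 8.44 and 5.44. Of 10 cholesterol synthesis genes 1 was higher (Sqle, 4.61 and 10.2), while Hmgcs1 and Insig1 stayed within 2-fold. Of 11 partners of TREM2 and genes of lipid-associated macrophages 4 were higher and 0 lower (median 0.84), among them Spp1 (12.3 and 302), Cd9 (170 and 550) and Lilr4b (227 and 703). All 3 were also higher in IR neutrophils, with Spp1 at 40.3 in sham and 829 in IR, Cd9 at 837 and 2606 and Lilr4b at 386 and 1595, and the part of neutrophil RNA in the macrophage values was not tested. Tyrobp, on this list as a partner of TREM2, was lower in IR but within 2-fold, at 3025 CPM in sham and 1796 in IR macrophages. The median over all genes was 0.09.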

How the data were processed

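Left-ventricular cells of sham and IR mice were measured by droplet scRNA-seq (10x Genomics). The deposited values are UMI counts per gene and cell, which the authors made with Cell Ranger on mm10 according to the submitters' notes (software version 3.1.0 in the matrix header). The authors deposited 1 matrix per condition, and no column maps a cell to a sample.

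By the limits stated in the study, cells needed 200 to 2500 detected genes and no more than 30% of UMIs from mitochondria. The study also left out genes found in fewer than 5 cells, a limit that was not applied to the levels and counts here. The study's own number of cells after quality control lies between the barcodes in each matrix and the cells kept here. The stated limits on cells, applied here, therefore do not give the study's numbers from these matrices. Classes needed at least 3 detected markers of a type, and macrophage states at least 2. The 10 genes, the marker lists and the pathway lists were chosen with earlier results of these data known, and the scoring thresholds were set after seeing the data. All 10 genes are named, with the 3 pathway genes of largest ratio in each list and the 3 most alike genes. Gpihbp1 and Tyrobp are named besides. Of the markers 3 (Ighd, Trac, Trbc2) and of the pathway genes 1 (Clec7a) were not among the symbols used. Doublets were limited by the upper limit on genes and by leaving cells of mixed markers unassigned. Coordinates are from GENCODE M21.

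Counts were summed per class and library and scaled to 1000000 UMIs per class (CPM). With 1 library per group no test was run. A count of 0 was read as at most 3 UMIs. Alternatives were no limit on genes, at most 10% mitochondrial UMIs, Leiden clusters, equal weight per cell, levels without mitochondrial and haemoglobin UMIs, leaving out high doublet scores, and no floor of 50 UMIs. Scripts were tested on simulated data. Python 3.11.15, numpy 2.4.6, scipy 1.17.1, pandas 2.3.3, scikit-learn 1.9.0, leidenalg 0.10.2 and matplotlib 3.10.9 were used.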

Additional observations from a re-analysis of the deposited data

Results flagged for a closer look

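Several of the 10 genes differed between sham and IR in opposite directions, or past 2-fold in 1 class and not in another. With 1 library per condition, none of these differences between classes was tested. The log2 ratio of IR to sham for Lpl was 4.18 in macrophages, 1.41 in endothelial cells and -1.20 in fibroblasts. For Cd36 the log2 ratio was 2.42 in macrophages and -1.90 in neutrophils, where 19 of the 41 sham UMIs lay in 1 cell and Leiden clusters turned the value to 1.08. For Fabp4 the log2 ratio was 1.75 in macrophages, 3.19 in fibroblasts and -1.52 in neutrophils, where 38 of the 84 sham UMIs lay in 1 cell and Leiden clusters turned the value to 0.98. Fabp5 had a log2 ratio of 2.46 in macrophages and -1.05 in endothelial cells, and the endothelial value turned to 0.39 without the limit on genes per cell.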

How the results depend on the processing

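No paired analysis was possible because the cells carry no sample or replicate number, and for the same reason no replicate could be left out. The number of genes higher in IR macrophages was 6 under each of the 7 alternatives. Without the limit on genes per cell, 1 gene (Abca1) was lower in IR macrophages, 2 were higher and 1 was lower in endothelial cells, 4 were higher in fibroblasts, 2 were higher in neutrophils (Plin2 and Msr1), and 2 were higher in the Gdf15 than the Lyve1 state. That setting turned the log2 ratio of Fabp5 in endothelial cells to 0.39, of Apoe in NK cells to 0.63 and of Plin2 in smooth muscle to -0.13. With at most 10% mitochondrial UMIs, 3 genes were higher in endothelial cells, and Lpl in cardiomyocytes turned to 0.60. With Leiden clusters, 4 were higher and 1 lower in neutrophils and 3 were higher in the Gdf15 state, and in neutrophils Cd36 turned to 1.08 and Fabp4 to 0.98. With equal weight per cell, 2 were higher in endothelial cells, 3 higher and 1 lower in neutrophils, and 1 (Lpl) higher in the Gdf15 state. Leaving out high doublet scores gave 2 higher in fibroblasts. Without the floor of 50 UMIs, 3 were higher in fibroblasts and 1 (Fabp5) in the Gdf15 state. Levels without mitochondrial and haemoglobin UMIs moved none of the 12 counts past 1.5 times. Of 28 ratios past 2-fold, 24 to 27 stayed past it under the 6 alternatives that recompute a ratio (the floor of 50 UMIs does not enter a ratio). The causes were not tested. Depth limits Fabp5, Abca1 and Abcg1 in the states with 15 to 31 IR cells.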

Other observations

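Some pathway genes differed between sham and IR outside macrophages as well. Ch25h, which makes the LXR ligand 25-hydroxycholesterol, was at 14.6 CPM in sham and 253 in IR fibroblasts. In endothelial cells it was at 1.42 (1 UMI) and 129. Hilpda was at 41.8 and 363 in neutrophils, 22.7 and 62.5 in fibroblasts and 26.2 and 79.1 in pericytes, while in T cells it was at 31.0 and 35.0 with overlapping intervals. G0s2 went the other way in stromal cells, with 820 and 243 in fibroblasts and 1431 and 657 in pericytes, against 1760 and 9731 in neutrophils. Pltp was at 52.3 and 18.5 in fibroblasts and at 127 and 84.3 in endothelial cells, the latter with overlapping intervals.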
